A study of Mus musculus with 9 samples.

Results

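The neutrophil granule genes were examined in lymph node tumors that developed in Bcl6 transgenic mice with or without deletion of 1 Smc3 allele. The set holds 10 of the 41128 genes in the count table and was chosen by gene symbol. Mpo, Elane and Prtn3 formed the early group, Ltf, Camp, Ngp, S100a8 and S100a9 formed the late group, and Lcn2 and Mmp8 were placed in neither.

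RNA-seq was available for 9 tumors, with 1 library per tumor. The 3 Bcl6 tumors had the genotype Smc3 wt/wt, and the 6 Smc3/Bcl6 tumors had the genotype Smc3 wt/-. Tumors of both genotypes also carried IµBcl6, a Bcl6 transgene inserted at the immunoglobulin heavy chain locus, and 1 Cγ1-Cre allele. Cγ1-Cre is active from the germinal center stage of B cells onward and removes exon 4 of Smc3, so the model directs the deletion to B cells and not to granulocytes. The labels named mesenteric lymph node for replicate 1 of each genotype and lymph node for the other 7 tumors, while the study described all of them as mesenteric lymph node lymphoma cells. Age, sex and any sort were not given in the sources used here. P-values measure the spread between tumors.

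Neutrophils are made in the bone marrow and fill their granules in sequence. Promyelocytes make the primary (azurophilic) granules, whose contents include myeloperoxidase (Mpo) and the serine proteases neutrophil elastase (Elane) and proteinase 3 (Prtn3). Myelocytes and later cells make the secondary and tertiary granules, with lactoferrin (Ltf), cathelicidin (Camp), neutrophilic granule protein (Ngp), lipocalin 2 (Lcn2) and the collagenase Mmp8. S100a8 and S100a9 encode the subunits of calprotectin, which is abundant in the cytosol of neutrophils and is also made by monocytes.

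Sequencing depth ranged from 10156728 to 17774577 counts per tumor. Values are given as CPM, the counts of a gene scaled to the size of its library after TMM normalization. Smc3 itself did not tell the labels apart, with 87.9 to 126 CPM in the Bcl6 tumors and 27.9 to 111 CPM in the Smc3/Bcl6 tumors (log2 fold change -0.19, edgeR unadjusted p = 0.628), and these counts cover all of its exons. The study reported reduced Smc3 mRNA in Smc3/Bcl6 tumors by RT-qPCR, a measurement that was not examined here. The lowest Smc3 value belonged to Smc3/Bcl6 2, a library that stood apart in its dependence on gene length (Spearman -0.466 between exon length and deviation from the mean, against -0.030 to 0.273 in the other tumors). B cell genes were abundant in every tumor, with summed levels of Cd79a, Cd79b, Ms4a1 and Pax5 between 1358 and 6223 CPM.

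The granule genes lie on 5 chromosomes, and several are neighbors in the genome (GRCm38, GENCODE M21). Prtn3 (ENSMUSG00000057729.7, chr10:79874476-79883174, plus strand) and Elane (ENSMUSG00000020125.6, chr10:79886247-79888215, plus strand) are separated by 3072 bases. Mpo (ENSMUSG00000009350.8) lies at chr11:87793581-87804413 on the plus strand. Camp (ENSMUSG00000038357.8, chr9:109847379-109849617, minus strand), Ngp (ENSMUSG00000032484.6, chr9:110419747-110423012, plus strand) and Ltf (ENSMUSG00000032496.3, chr9:111019271-111042767, plus strand) follow each other on chromosome 9, with 570129 and 596258 bases between them. Mmp8 (ENSMUSG00000005800.2, chr9:7558456-7568485, plus strand) is on the same chromosome but distant. S100a8 (ENSMUSG00000056054.8, chr3:90668978-90670035, plus strand) and S100a9 (ENSMUSG00000056071.7, chr3:90692632-90695721, minus strand) are 22596 bases apart, and Lcn2 (ENSMUSG00000026822.9) lies at chr2:32384633-32388252 on the minus strand.

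The promoters were compared in letters that granulocyte factors are known to bind. The 250 bases before the RefSeq start of all 10 genes (GRCm38.p6) were searched on both strands for GAGGAA, a core letter sequence of PU.1 sites, for TTGCNNAA, a spelling of the C/EBP site, and for TGTGGT, the core-binding factor site. GAGGAA was present in 7 of 10 windows, including those of all 3 early genes, against 23.3% of 32851 promoter windows. TTGCNNAA was present in 5 of 10 windows (Ltf, Ngp, S100a9, Lcn2 and Mmp8), against 9.56% of all windows. None of the early genes held it, nor did the late genes Camp and S100a8. Since most windows lack TTGCNNAA, its absence from 3 early windows does not set the early genes apart. TGTGGT was present only in the S100a9 window among the 10, against 14.0% of all windows, and Camp held none of these letters. RefSeq and GENCODE M21 place some gene starts differently. The windows of Prtn3 and Lcn2 lie wholly within the gene as GENCODE M21 places it, and that of Lcn2 begins in an exon. For the early genes, S100a8 and Mmp8, 1 match each is given in 30-base stretches that read 5′ to 3′ on the strand of the match, with the searched letters in capitals. None of these stretches overlaps an exon of the gene in GENCODE M21.
Mpo, chr11:87793548-87793577, plus strand: tgtggagagagaGAGGAAgttgcctttgtc
Elane, chr10:79886215-79886244, plus strand: tcgtgtcccaggGAGGAAgtagggctgtgg
Prtn3, chr10:79879560-79879589, plus strand: ccaaactggaagGAGGAAgtgggacccaca
S100a8, chr3:90668889-90668918, minus strand: atttctgagtctGAGGAAgtgggagtgttg
Mmp8, chr9:7558198-7558227, minus strand: tctgtgtgtaatGAGGAAgttgtgctagtt

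These stretches were chosen because the letters are followed by GT, which was not the case for the remaining GAGGAA matches, in Mpo, S100a8, Ltf and Lcn2. The longer spelling GAGGAAGT, which was examined after the matches had been seen, was present in the windows of 5 of the 10 genes (all 3 early genes, S100a8 and Mmp8) and in 2.44% of all windows. The C/EBP-type matches of Ltf, Ngp, S100a9 and Mmp8 are shown in the same way because no early gene held one.
Ltf, chr9:111019206-111019235, minus strand: gccccaccctaTTGCCCAAtaggcctgcct
Ngp, chr9:110419659-110419688, plus strand: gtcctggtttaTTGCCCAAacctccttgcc
S100a9, chr3:90695939-90695968, minus strand: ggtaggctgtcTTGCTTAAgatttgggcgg
Mmp8, chr9:7558399-7558428, plus strand: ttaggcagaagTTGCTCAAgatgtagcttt

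Ltf and Ngp held the same 8 letters. The RefSeq windows of an early and a late gene are also shown up to the first base that GENCODE M21 places in an exon, with GAGGAA and TTGCNNAA in capitals on whichever strand they match. Prtn3 stands for the genes that were high in 1 tumor alone, and Ltf for those that were high in a pair of tumors. A match is a description of the letters only.
Prtn3, chr10:79879417-79879613, plus strand: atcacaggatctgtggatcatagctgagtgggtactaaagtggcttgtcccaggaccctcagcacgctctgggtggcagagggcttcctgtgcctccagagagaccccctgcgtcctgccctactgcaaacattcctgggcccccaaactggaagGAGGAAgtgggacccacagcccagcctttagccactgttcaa
Ltf, chr9:111019042-111019270, plus strand: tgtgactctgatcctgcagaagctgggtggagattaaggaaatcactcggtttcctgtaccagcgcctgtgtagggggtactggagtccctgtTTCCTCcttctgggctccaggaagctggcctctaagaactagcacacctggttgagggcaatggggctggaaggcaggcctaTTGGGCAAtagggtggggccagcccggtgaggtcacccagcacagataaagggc

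The early granule genes were high in Bcl6 3 and low in the other 8 tumors. Mpo, the enzyme that makes hypochlorous acid, was at 1.498, 0.863 and 209 CPM in Bcl6 1, 2 and 3. In the 6 Smc3/Bcl6 tumors Mpo had a lowest value of 0.394, a median of 3.10 and a highest value of 17.5 CPM. Bcl6 3 was therefore 11.9-fold above the next tumor, Smc3/Bcl6 6, whereas the remaining Bcl6 tumors fell within the range of the Smc3/Bcl6 tumors. Fewer cells of a type and less RNA per cell cannot be told apart in these bulk samples.

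Elane, the elastase of the primary granule, followed Mpo closely. Its level was 0.529, 0.485 and 75.1 CPM in Bcl6 1, 2 and 3, and it ranged from 0 through a median of 1.52 to 4.25 CPM in the Smc3/Bcl6 tumors. No Elane count was recorded in Smc3/Bcl6 5, whose depth places 3 counts at 0.236 CPM, so that Bcl6 3 was at least 318-fold higher than that tumor. Prtn3, the neighbor of Elane, was at 0.176, 0.162 and 27.6 CPM in Bcl6 1, 2 and 3, with a lowest value of 0.209, a median of 0.765 and a highest value of 1.73 CPM in the Smc3/Bcl6 tumors. The 292 Prtn3 counts of Bcl6 3 compare with 2 to 26 counts in each of the other tumors. The next tumor after Bcl6 3 was Smc3/Bcl6 6 for all 3 early genes, at a distance of 17.7-fold for Elane and 15.9-fold for Prtn3.

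The late granule genes were high in a pair of tumors, 1 of each genotype. Ltf, the iron-binding protein of the secondary granule, was at 19.8, 1.29 and 110 CPM in Bcl6 1, 2 and 3. In the Smc3/Bcl6 tumors Ltf had no count in Smc3/Bcl6 5, a median of 4.07 CPM and a highest value of 126 CPM in Smc3/Bcl6 4. The highest value thus belonged to a Smc3/Bcl6 tumor, 1.14-fold above Bcl6 3 and at least 533-fold above Smc3/Bcl6 5.

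Ngp, a cystatin-related protein of the secondary granule, was at 39.7, 2.53 and 305 CPM in Bcl6 1, 2 and 3. Its Smc3/Bcl6 values ran from 0.158 CPM (2 counts) through a median of 16.6 to 204 CPM in Smc3/Bcl6 4. Bcl6 3 and Smc3/Bcl6 4 again led, and they differed by 1.49-fold. Camp, the precursor of the antimicrobial peptide CRAMP, was at 9.16, 0.377 and 92.3 CPM in Bcl6 1, 2 and 3. Camp ranged from 0.079 CPM (1 count) through a median of 5.58 to 41.2 CPM in the Smc3/Bcl6 tumors, and Bcl6 3 was 2.24-fold above Smc3/Bcl6 4.

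S100a8 and S100a9 had the highest levels of the 10 genes in every tumor on the length-scaled TPM scale. S100a8 was at 52.2, 9.003 and 587 CPM in Bcl6 1, 2 and 3, and between 5.91 and 230 CPM around a median of 65.9 among Smc3/Bcl6 tumors. S100a9 was at 47.9, 4.47 and 460 CPM in Bcl6 1, 2 and 3, and between 1.58 and 221 CPM around a median of 47.1 among Smc3/Bcl6 tumors. Smc3/Bcl6 5 was the lowest and Bcl6 3 the highest tumor for both, and Smc3/Bcl6 4 came second.

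Per transcript length, S100a9 reached 2590 and S100a8 2484 TPM, a level scaled by exon length and by the summed level of all genes, in Bcl6 3. The TPM level of S100a9 was above that of S100a8 in 5 tumors and below it in 4. The ratio of S100a9 to S100a8 in TPM was 1.04 to 1.28 in Bcl6 1, Bcl6 3 and Smc3/Bcl6 1, 4 and 6. It was 0.661 in Bcl6 2, 0.759 in Smc3/Bcl6 2, 0.999 in Smc3/Bcl6 3 and 0.355 in Smc3/Bcl6 5, where S100a9 rested on 20 counts and S100a8 on 75. The 5 tumors with the higher ratio were also those with the higher levels of both genes, except that S100a8 was higher in Smc3/Bcl6 2 (64.0 CPM) than in Bcl6 1 (52.2 CPM) on the CPM scale.

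Lcn2, which binds bacterial siderophores, and Mmp8, the neutrophil collagenase, followed the late genes. Lcn2 was at 8.99, 1.08 and 104 CPM in Bcl6 1, 2 and 3, and between 3.00 and 55.7 CPM around a median of 8.30 among Smc3/Bcl6 tumors. Lcn2 had 38 counts in Smc3/Bcl6 5, and its lowest tumor was Bcl6 2. Mmp8 was at 3.26, 0.539 and 27.5 CPM in Bcl6 1, 2 and 3, and ran from 0 through a median of 1.79 to 41.7 CPM among Smc3/Bcl6 tumors. As for Ltf, its highest value belonged to Smc3/Bcl6 4, which was 1.52-fold above Bcl6 3 and at least 176-fold above Smc3/Bcl6 5. Over all 10 genes, Bcl6 3 was the highest tumor for 8 and Smc3/Bcl6 4 for 2, while Smc3/Bcl6 5 was the lowest for 8 and Bcl6 2 for 2.

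**Figure D1:**
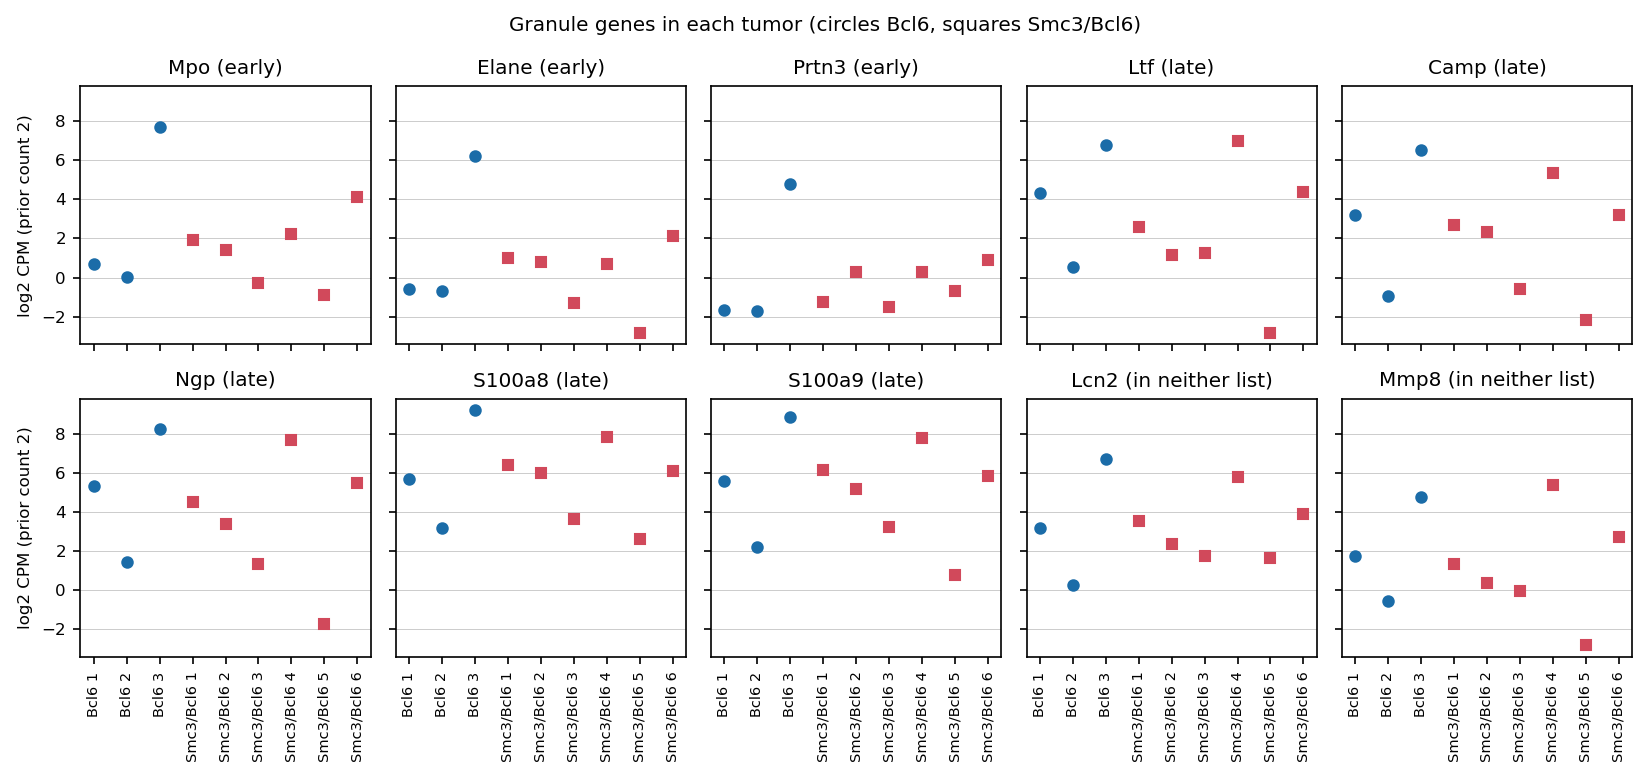
Each panel plots the log2 CPM (prior count 2) of 1 granule gene, on the vertical axis, in each of the 9 tumors, on the horizontal axis, with circles for the 3 Bcl6 and squares for the 6 Smc3/Bcl6 tumors. Mpo, Elane and Prtn3 have 1 high point, Bcl6 3, whereas the late genes, Lcn2 and Mmp8 have a pair of high points, Bcl6 3 and Smc3/Bcl6 4.

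The granule genes varied far more between tumors than most genes. The standard deviation of log2 CPM over the 9 tumors was 2.04 for Lcn2, 2.06 for Prtn3, 3.16 for Ltf and 3.22 for Ngp, with the other members in between, against a median of 0.635 over the 14057 genes tested. This placed the 10 genes between the 96.8 and 99.8 percentiles of the genes tested. All of them passed the filter on low counts.

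Early and late genes parted between Bcl6 3 and Smc3/Bcl6 4, the tumors with the highest and the lowest early share of counts. The summed late genes reached 1555 CPM in Bcl6 3 and 823 CPM in Smc3/Bcl6 4, which was 1.89-fold less. The summed early genes reached 311 CPM in Bcl6 3 and 7.11 CPM in Smc3/Bcl6 4, which was 43.8-fold less. Early genes made up 16.7% of the 19777 early and late counts in Bcl6 3 (95% Wilson interval 16.2 to 17.2%). In Smc3/Bcl6 4 they made up 0.856% of 12501 counts (0.709 to 1.03%). These intervals cover counting error only and do not overlap.

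The same contrast appeared among tumors with similar late levels. Bcl6 1, Smc3/Bcl6 1 and Smc3/Bcl6 6 had summed late levels of 169, 191 and 200 CPM. Their summed early levels were 2.20, 5.82 and 23.5 CPM, a 10.7-fold range. The early share was 1.29% in Bcl6 1 (0.874 to 1.89%), 2.96% in Smc3/Bcl6 1 (2.40 to 3.65%) and 10.5% in Smc3/Bcl6 6 (9.52 to 11.6%). In the remaining tumors it was 7.87% in Bcl6 2, 4.20% in Smc3/Bcl6 2, 4.10% in Smc3/Bcl6 3 and 10.1% in Smc3/Bcl6 5, where the interval was wide because only 109 counts entered (5.73 to 17.2%).

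The genotypes overlapped in this balance. The difference between the late and the early mean log2 CPM was 5.33, 2.07 and 1.68 in Bcl6 1, 2 and 3. In the Smc3/Bcl6 tumors it ranged from 0.80 through a median of 2.81 to 6.07. The means were 3.03 ± 2.01 (SD, n = 3) and 3.17 ± 1.74 (SD, n = 6), which differed by 0.14 on the log2 scale, less than the SD of either genotype. The early mean log2 CPM was 1.65 ± 3.98 in Bcl6 and 0.39 ± 1.43 in Smc3/Bcl6 tumors, and the late mean was 4.68 ± 3.32 and 3.56 ± 2.71. No test was applied to these means because the members had been chosen with earlier results known.

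**Figure D2:**
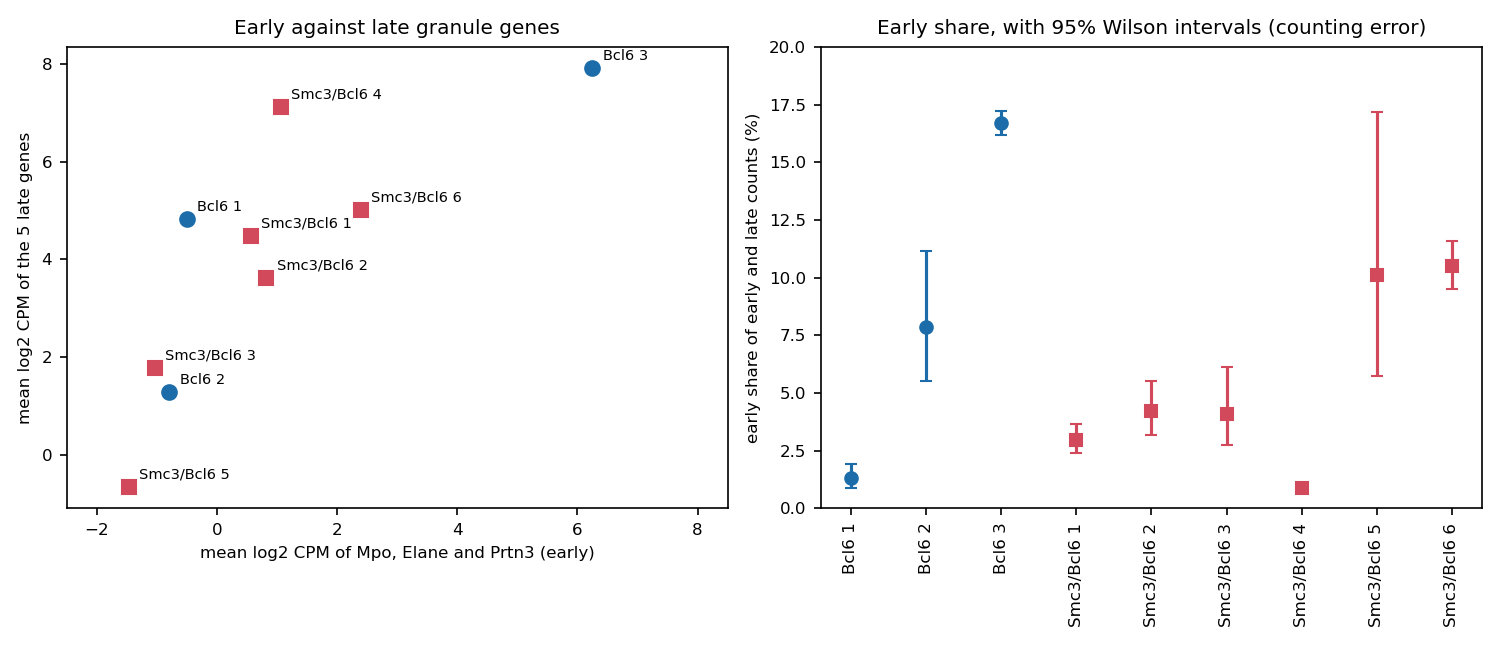
The left panel plots for each tumor the mean log2 CPM of the 3 early genes, on the horizontal axis, against that of the 5 late genes, on the vertical axis, and the right panel plots the early share of early and late counts in percent with its 95% Wilson interval (circles Bcl6, squares Smc3/Bcl6). Bcl6 3 lies alone at the far right with a share of 16.7%, and Smc3/Bcl6 4 lies nearly as high on the late axis with a share of 0.856%.

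The genotype comparison asked whether Smc3 haploinsufficient tumors differed from Bcl6 tumors in these genes. All 3 early genes were past the study's thresholds (unadjusted p below 0.1 and a log2 fold change beyond 0.56) in the direction of lower expression in Smc3/Bcl6 tumors. The 5 late genes, Lcn2 and Mmp8 were not past them. The background was 122 of 14057 genes lower, or 0.868%, and 180 genes higher, or 1.28%, with none of the 10 among the latter. No gene of the table passed an adjusted p of 0.05 (0%) in edgeR's quasi-likelihood test, and 79 genes had an unadjusted p below 0.05. The values of all 10 genes overlapped between the genotypes, whereas 67 of the genes tested (0.477%) did not overlap.

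The log2 fold change of Mpo was -3.84 (SE 1.51, edgeR unadjusted p = 0.0291, adjusted p = 1.00). Elane had a log2 fold change of -4.00 (SE 1.497, edgeR unadjusted p = 0.0233, adjusted p = 1.00) and Prtn3 one of -3.52 (SE 1.32, edgeR unadjusted p = 0.0233, adjusted p = 1.00). The group means were 70.4 ± 120 CPM against 4.90 ± 6.41 for Mpo, 25.4 ± 43.1 against 1.57 ± 1.52 for Elane, and 9.30 ± 15.8 against 0.801 ± 0.587 for Prtn3 (SD, n = 3 and 6). In each case the SD of the Bcl6 group exceeded its mean. Among the other members the log2 fold changes ran from -1.71 for Camp (SE 1.51, edgeR unadjusted p = 0.285) to -0.24 for Mmp8 (SE 1.62, edgeR unadjusted p = 0.883). All 10 estimates were negative, against a median of 0.06 over all genes tested, of which 8073 were positive.

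The early calls rested on Bcl6 3. Without that tumor none of the 10 genes was past the thresholds for lower expression and all 10 estimates turned positive, from 1.12 for Camp to 2.21 for Mmp8. Mpo then had a log2 fold change of 2.05 (SE 1.39, edgeR unadjusted p = 0.174) and Prtn3 one of 2.19 (SE 1.07, edgeR unadjusted p = 0.0714), so that Prtn3 was past the thresholds in the opposite direction, against a background of 1.55% of 14594 genes. When replicates 1 to 3 of both genotypes were paired by a replicate block, the 3 early genes were not past the thresholds either, at -0.50 for Mpo, -0.31 for Elane and -0.80 for Prtn3 (edgeR unadjusted p = 0.827, 0.898 and 0.747). DESeq2 gave no p-value for Mpo, Elane, Prtn3 and Mmp8, because its outlier rule (Cook's distance) withheld it, and limma voom with a weight per tumor gave 0.19, -0.67 and 0.35 for the 3 early genes.

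No late gene was past the thresholds over all tumors, and the late estimates, like the early ones, turned positive without Bcl6 3. The late estimates were more negative without Smc3/Bcl6 4. Without that tumor 8 of the 10 genes were past the thresholds for lower expression, against a background of 148 of 13762 genes, or 1.08%. Ltf moved from -0.74 (SE 1.67, edgeR unadjusted p = 0.668) to -2.90 (unadjusted p = 0.0804), Camp to -3.13 (unadjusted p = 0.0651), Ngp to -2.94 (unadjusted p = 0.0819), S100a8 to -2.32 (unadjusted p = 0.0853) and Lcn2 to -2.43 (unadjusted p = 0.0621). S100a9 and Mmp8 remained short of the thresholds. Without Bcl6 2, S100a8 joined the 3 early genes at -2.16 (edgeR unadjusted p = 0.0907).

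**Figure D3:**
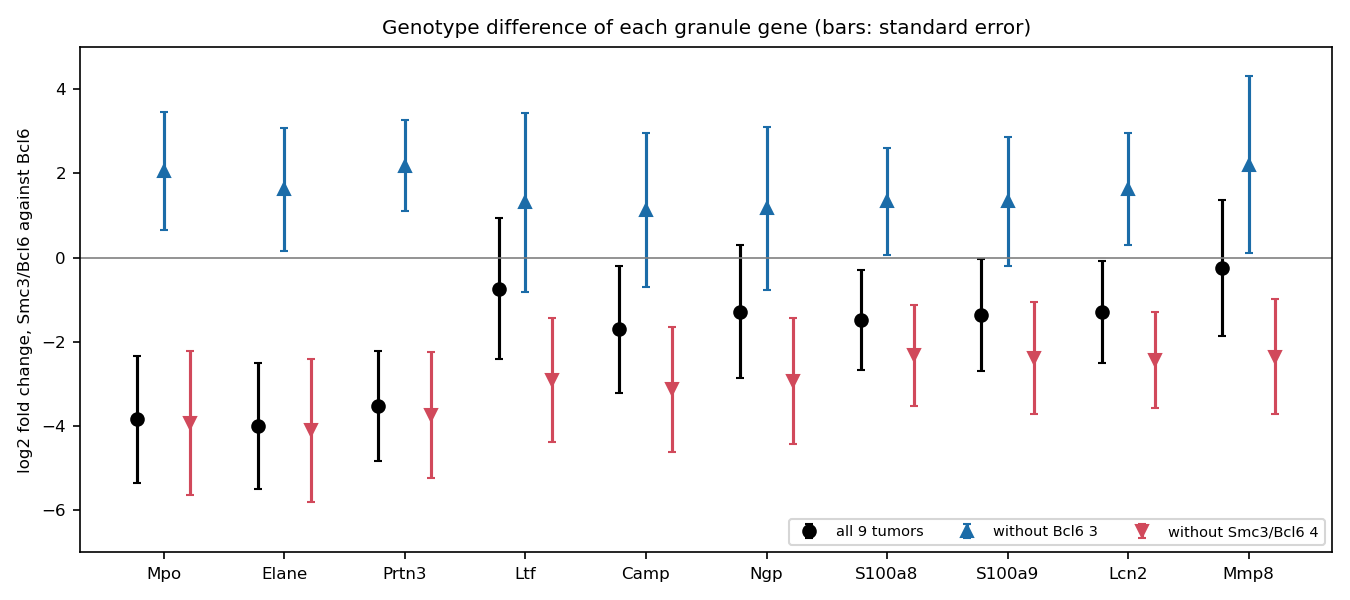
The vertical axis gives the log2 fold change of Smc3/Bcl6 against Bcl6 tumors with its standard error for each of the 10 granule genes, on the horizontal axis, over all 9 tumors (circles), without Bcl6 3 (upward triangles) and without Smc3/Bcl6 4 (downward triangles). All 10 estimates are above 0 without Bcl6 3 and below 0 in the other fits.

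Late genes varied together from tumor to tumor. Over the 9 tumors of both genotypes, Pearson correlations of log2 CPM ranged from 0.897 to 0.989 for the 10 pairs of late genes. Ltf and Mmp8 had r = 0.987 (exact permutation p = 5.51e-06, adjusted p = 0.000165) and Spearman rho = 0.983 (exact permutation p = 4.96e-05, adjusted p = 0.000558), and r = 0.978 without the 2 tumors farthest from the median of Ltf. Camp and S100a9 had r = 0.989 (exact permutation p = 1.93e-05, adjusted p = 0.000165) and rho = 0.950 (exact permutation p = 0.000353, adjusted p = 0.00132), and r = 0.980 without the 2 tumors farthest from the median of Camp. Within the 6 Smc3/Bcl6 tumors the late pairs kept correlations of 0.894 to 0.992. All p-values were two-sided and adjusted over the 45 pairs of the 10 genes, which share libraries and depth.

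Early genes were less tightly tied, and Bcl6 3 weighed on their correlations. Mpo and Elane had r = 0.982 (exact permutation p = 1.93e-05, adjusted p = 0.000165) and rho = 0.950 (exact permutation p = 0.000353, adjusted p = 0.00132), with r = 0.943 without the 2 tumors farthest from the median of Mpo, Bcl6 3 and Smc3/Bcl6 6. Elane and Prtn3 had r = 0.885 (exact permutation p = 0.00640, adjusted p = 0.00929) but rho = 0.683 (exact permutation p = 0.0503, adjusted p = 0.0581), and r was 0.591 without Bcl6 3. Mpo and Prtn3 fell from r = 0.918 to 0.495 without the 2 farthest tumors, so the size of r leaned on them. Their rho was 0.750 (exact permutation p = 0.0255, adjusted p = 0.0319), and r was 0.722 without Bcl6 3 alone. Prtn3 had only 2 to 26 counts in each tumor other than Bcl6 3, so counting error also enters its correlations. Between early and late genes r ranged from 0.5604 to 0.865, and 12 of the 15 pairs passed an adjusted p of 0.05 for r and 9 of 15 for rho by the exact permutation test. The weakest pair was Prtn3 with Ltf, at r = 0.5604 (exact permutation p = 0.117, adjusted p = 0.117) and rho = 0.583 (exact permutation p = 0.108, adjusted p = 0.108), and at r = 0.226 without the 2 tumors farthest from the median of Prtn3.

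Further early genes were also higher in Bcl6 3 than in Smc3/Bcl6 4, but the gap did not separate the stages cleanly. The smallest early gap was 4.04-fold, for Prss57. It was exceeded by the late granule genes Hp, at 4.59-fold, and Mmp25, at 7.16-fold, but not by the other further late granule genes. All 4 further early genes examined were highest in Bcl6 3. Ctsg, the primary granule protease cathepsin G, was at 24.3 CPM in Bcl6 3, at 0.664 CPM in Smc3/Bcl6 4 and at 1.93 CPM in Smc3/Bcl6 6. Ms4a3, a membrane protein of granulocyte-monocyte progenitors, was at 20.6 CPM in Bcl6 3 and had 1 count in Smc3/Bcl6 4. Fcnb and Prss57 were at 13.6 and 3.49 CPM in Bcl6 3 and at 1.20 and 0.863 CPM in Smc3/Bcl6 4. Each of these 4 genes had 0 counts in at least 1 tumor, 2 of them passed the filter on low counts, and Ms4a3 was past the thresholds (log2 fold change -3.20, edgeR unadjusted p = 0.0879).

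The 9 further late granule genes were split between those that followed both tumors and those that did not. Chil3, a chitinase-like protein, was at 394 CPM in Bcl6 3 and 252 CPM in Smc3/Bcl6 4. Mmp9, the gelatinase of tertiary granules, was at 64.1 and 51.5 CPM in the same tumors, and Cd177, a neutrophil surface protein, was at 23.9 and 25.8 CPM. By contrast, haptoglobin (Hp) was at 119 CPM in Bcl6 3 and 25.97 CPM in Smc3/Bcl6 4, and Pglyrp1, a peptidoglycan recognition protein, was highest in Smc3/Bcl6 2 at 143 CPM. That library stood apart in its dependence on gene length, and Pglyrp1 was at 76.2 CPM in Bcl6 3 and 39.3 CPM in Smc3/Bcl6 4. Mmp25, a membrane-anchored matrix metalloproteinase, was past the thresholds for lower expression (log2 fold change -1.85, edgeR unadjusted p = 0.0726) and none of the 9 was past them for higher expression. The median log2 fold change of the list was -0.85, against 0.06 over all genes tested.

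Receptors and products of mature neutrophils led in Bcl6 3, with 7 of the 8 genes highest there, and they were split in the tumors where the granule genes were lowest. Retnlg, a resistin-like protein of neutrophils, was at 292 CPM in Bcl6 3 and 55.5 CPM in Smc3/Bcl6 4, and Csf3r, the G-CSF receptor, was at 113 and 43.7 CPM. Bcl6 2, where every member except S100a8 was below 5 CPM, had the highest level of the decoy receptor Il1r2 (137 CPM). Smc3/Bcl6 5, where Camp, Ngp and Ltf had 3 counts in all, held 98.9 CPM of Il1r2 and 17.6 CPM of Csf3r. Retnlg, by contrast, was at 2.48 CPM in Bcl6 2 and 1.42 CPM in Smc3/Bcl6 5, and the chemokine receptor Cxcr2 was at 1.67 and 1.26 CPM in these tumors, against 19.7 CPM in Bcl6 3. The T cell gene Cd3e was, like Il1r2, highest in Bcl6 2, at 453 CPM, and was at 142 CPM in Smc3/Bcl6 5. Il1r2 and Cd3e were both lowest in Smc3/Bcl6 1, at 6.52 and 5.13 CPM. They parted in Smc3/Bcl6 3, with 45.5 CPM of Il1r2 and 383 CPM of Cd3e. Which cells made the Il1r2 RNA was not tested. None of the 7 mature neutrophil genes tested was past the thresholds, and their median log2 fold change was -1.03.

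Most factors that direct granulocyte development were highest in tumors other than Bcl6 3, with Cebpa, Cebpb and Cebpd highest in Smc3/Bcl6 3. The mean log2 CPM of the list was nonetheless highest in Bcl6 3, at 3.62 against 3.28 in Smc3/Bcl6 3. Spi1, which encodes PU.1, ranged from 58.4 to 179 CPM and was highest in Smc3/Bcl6 2, and Gfi1 was highest in Smc3/Bcl6 5 at 40.5 CPM. Cebpe, which is needed for secondary granule formation, was the exception, at 4.81 CPM in Bcl6 3, 0.664 CPM in Smc3/Bcl6 4 and at most 1.27 CPM elsewhere. None of the 5 factors tested or the 3 progenitor genes (Kit, Cd34 and Flt3) was past the thresholds, with median log2 fold changes of -0.06 and 0.60.

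The genes most like the early and the late groups were found by Pearson correlation with the group's mean log2 CPM over the 9 tumors, among 14047 other genes tested. P2rx1, an ATP-gated ion channel, was most like the early mean (r = 0.947), at 12.6 CPM in Bcl6 3 and 0.946 to 4.12 CPM elsewhere. It was followed by Prss57 (r = 0.938), Ms4a3 (0.927), the coagulation factor gene F5 (0.909) and F11r, a junctional adhesion molecule (0.883). Lrg1, a secreted leucine-rich glycoprotein, was most like the late mean (r = 0.963), at 32.0 CPM in Bcl6 3, 25.2 CPM in Smc3/Bcl6 4 and 0.473 CPM in Smc3/Bcl6 5. It was followed by Cyb5r1 (0.918), RP23-116B8.1 (0.909), Cd177 (0.905) and F5 (0.899). F11r differed from the other early-like genes in that Smc3/Bcl6 6 came close to Bcl6 3, at 24.5 against 28.1 CPM.

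Markers of other cells also differed between the tumors that led, and their part in the granule gene levels was not tested. In Bcl6 3 the summed B cell genes were the lowest of the 9 tumors, at 1358 CPM, and all 5 mast cell and basophil genes (Mcpt8, Cpa3, Ms4a2, Fcer1a and Prss34) were highest, with a sum of 55.0 CPM. That sum was 1.67 to 55.0 CPM in the Bcl6 and 0.762 to 21.5 CPM in the Smc3/Bcl6 tumors, and Mcpt8, Fcer1a and Prss34 were at 0 in Smc3/Bcl6 4. In Smc3/Bcl6 4 the B cell genes were the highest, at 6223 CPM, as were the summed eosinophil genes, at 240 CPM, and the 7 erythroid genes, at 12780 CPM. Ccr3 alone made up 145 CPM of the eosinophil sum. The mean log2 CPM of the eosinophil list was higher in Bcl6 3, at 3.29, than in Smc3/Bcl6 4, at 3.02. Epx and Ear1 were highest in Bcl6 3, Prg2, Ear2 and Ccr3 in Smc3/Bcl6 4, and Il5ra in Smc3/Bcl6 6. Erythroid sums were 44.2 to 1472 CPM in the Bcl6 tumors and 122 to 12780 CPM in the Smc3/Bcl6 tumors. Of the 7 erythroid genes Slc4a1 and Klf1 were past the thresholds for higher expression in Smc3/Bcl6 tumors (log2 fold changes 4.69 and 3.47, edgeR unadjusted p = 0.0693 and 0.0895). Smc3/Bcl6 6, which came second for the early genes, had an erythroid sum of 4222 CPM. The erythroid sum was higher in Smc3/Bcl6 2, at 4650 CPM, where the early genes summed to 5.18 CPM. In Bcl6 3, the tumor with the highest early genes, it was 999.9 CPM.

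Summed monocyte and macrophage genes did not order the tumors as the granule genes did, but their mean log2 CPM was highest in the same pair as the late genes. The sum of the 10 genes was 397 to 2984 CPM in the Bcl6 and 258 to 3343 CPM in the Smc3/Bcl6 tumors. It was highest in Smc3/Bcl6 2 and lowest in Smc3/Bcl6 1, and it stood at 1740 CPM in Smc3/Bcl6 5, where the granule genes were lowest. The mean log2 CPM of the list was highest in Bcl6 3 (7.59), followed by Smc3/Bcl6 4 (7.27). That mean was 6.30 in Smc3/Bcl6 5 and lowest in Smc3/Bcl6 1, at 3.69. T cell sums ranged from 193 to 1474 CPM and from 61.4 to 1573 CPM, eosinophil sums from 21.6 to 109 CPM and from 7.09 to 240 CPM, and platelet sums from 5.01 to 10.2 CPM and from 1.06 to 34.7 CPM. Sums of stromal and epithelial genes ranged from 103 to 134 CPM and from 34.7 to 346 CPM. None of the genes tested for T cells, monocytes and macrophages, eosinophils, mast cells and basophils or platelets was past the thresholds, and of the stromal and epithelial genes Epcam alone was, with higher expression in Smc3/Bcl6 tumors (log2 fold change 0.77, edgeR unadjusted p = 0.0635).

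**Figure D4:**
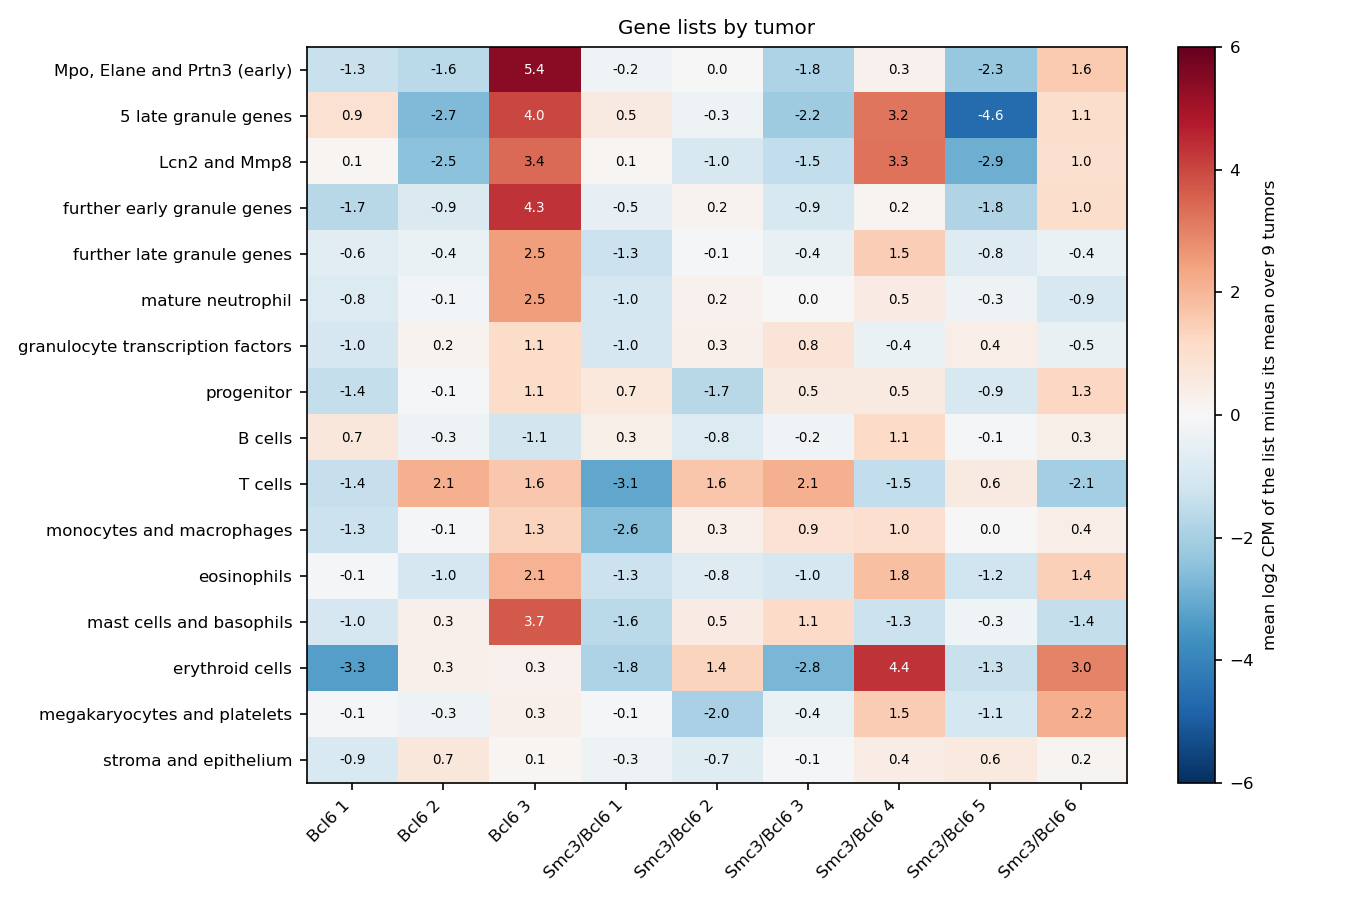
Each cell of the map gives the mean log2 CPM of a gene list, in rows, in 1 tumor, in columns, minus the mean of that list over the 9 tumors, with red above and blue below it. Bcl6 3 is red for the early, late and mature neutrophil lists and for mast cells and basophils, whereas Smc3/Bcl6 4 is red for the late granule genes and the erythroid genes and close to the mean, at 0.25, for Mpo, Elane and Prtn3. Both tumors are above the mean for eosinophils (2.09 in Bcl6 3, 1.82 in Smc3/Bcl6 4) and for monocytes and macrophages (1.33 and 1.01).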

How the data were processed

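Libraries had been prepared from total RNA with an Illumina TruSeq kit and sequenced on a HiSeq instrument. The authors aligned reads with STAR to mm10 with GENCODE transcripts and counted them with featureCounts. The deposited values are raw counts per gene, and whether counting used strand was not given in the sources used here. The submitters' processing notes name R 4.0.2 and DESeq2 1.28.1.

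Counts were analysed here with R 4.3.3 and edgeR 4.0.16 (TMM, filterByExpr by genotype, quasi-likelihood test over all 9 tumors, Benjamini-Hochberg adjustment over 14057 genes). The alternatives used DESeq2 1.42.0 and limma 3.58.1. Thresholds followed the study (unadjusted p below 0.1, absolute log2 fold change above 0.56), and an adjusted p of 0.05 was also applied. Log2 CPM used a prior count of 2. TPM used GENCODE M21 exon lengths, matched to 97.9% of gene IDs, and served to compare levels between genes. A limit for 0 counts was set at 3 counts per tumor. Intervals and limits cover counting error only. Promoter sequences and windows came from RefSeq (GRCm38.p6) and matched all 10 genes. Members and lists, the latter being genes of granulocyte stages and of other cell types, were chosen by symbol with earlier results of these data known. Of the lists, Siglecf, Hbb-b1 and Ahsp were not matched and Adgre1 was matched as Emr1. A pair of marker genes of other cell types is not reported here and was left out of the list sums. The genes most alike were the 5 with the highest Pearson correlation to each group mean.

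Deviations from the genotype means correlated at 0.443, 0.113 and 0.155 between tumors with the same replicate number 1, 2 and 3. Tumors with unlike numbers were not correlated for comparison, and the labels name no shared litter or batch. The main fit did not pair the tumors, and pairing by number entered only the replicate block. The alternatives were other tools, scalings, filters and prior counts, the replicate block, the tissue label as a covariate, other memberships of the late group, and each tumor left out in turn.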

Additional observations from a re-analysis of the deposited data

How the results depend on the processing

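Depth limited the early genes in the low tumors, where 3 counts correspond to 0.156 to 0.317 CPM. Over the alternatives, 134 of 169 log2 fold changes were counted as keeping their direction and their side of the threshold. These include the 4 from DESeq2 without a p-value, for which only the direction could be compared. Of the 53 counts of genes, 46 were equal to the main count or within 1.5 times of it. Most of these 46 were 0 in both fits, and no gene of the table passed an adjusted p of 0.05 in any fit, so they say little about stability. The genotype differences of the early, late and late minus early means have no test, and all 43 alternative values lay within 1 SD of the value over all tumors, but 7 changed sign. Without Bcl6 3 the early difference went from -1.26 to 1.04 and the late difference from -1.12 to 0.50. The late minus early difference went from 0.14 to -0.17 without S100a8 and S100a9 in the late list and to between -0.54 and -0.010 in 4 of the fits with a tumor left out (Bcl6 2, Bcl6 3, Smc3/Bcl6 1 or Smc3/Bcl6 4). The count of granule genes lower in Smc3/Bcl6 tumors, 3 with all tumors, was 0 with DESeq2, which gave no p-value for 4 of the genes, 0 with limma voom and a quality weight per tumor, and 0 with the replicate block, in which 9 of the 10 genes were tested. It was also 0 with the replicate block on the genes of the main filter, an alternative chosen after seeing the data because Prtn3 had not passed the filter of the 6 paired tumors. Leaving out each tumor gave 0 (without Bcl6 3) to 8 (without Smc3/Bcl6 4) lower and 0 to 1 higher, the latter without Bcl6 3. The cause of these changes was not tested. The tissue label as a covariate, other scalings and no filter on low counts kept the count at 3.

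With limma voom and quality weights the log2 fold change was 0.19 for Mpo, 0.35 for Prtn3, 0.59 for Camp, 0.13 for Ngp, 0.30 for S100a8, 0.62 for S100a9, 1.28 for Lcn2 and 0.26 for Mmp8, all reversed. With the replicate block it was -0.50 for Mpo and -0.32 for Elane, and it was reversed at 0.055 for S100a8 and 0.026 for S100a9, and at 0.056 and 0.026 on the genes of the main filter. The block changed no other direction. Leaving out each tumor moved the log2 fold change between -4.88 and 2.05 for Mpo, -4.70 and 1.62 for Elane, -4.23 and 2.19 for Prtn3, -2.90 and 1.31 for Ltf, -3.13 and 1.12 for Camp, -2.94 and 1.17 for Ngp, -2.32 and 1.34 for S100a8, -2.38 and 1.34 for S100a9, -2.43 and 1.63 for Lcn2, and -2.35 and 2.21 for Mmp8. All upper ends came without Bcl6 3, and Mmp8 was also reversed without Smc3/Bcl6 5 (0.02). Total counts in place of TMM shifted the median log2 fold change of all genes by -0.10 and the calls from 180 higher and 122 lower to 108 and 175.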
